A study of Mus musculus with 20 samples.

Results

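A group of 9 genes of fatty acid synthesis were followed across 5 regions of the mouse heart. They are the enzymes Acly, Aacs, Me1, Acaca, Fasn, Elovl6, Scd1 and Scd2 and the transcription factor Srebf1, and they were taken by gene name from the array annotation, with all of their probes. This gave 9 of 16593 named genes and 11 of 25697 probes, with 2 probes each for Me1 and Srebf1. The samples came from male C57/BL6 mice aged 5 to 10 weeks. They were the left and right atrium (LA and RA), the left and right ventricle (LV and RV) and the sinoatrial region (SA), the atrial tissue that holds the pacemaker, each on 4 arrays. V stands for both ventricles. Animals carried no transgene or treatment by their labels. SA was pooled from several mice and dissected apart from the other regions, so that region and dissection cannot be told apart. Each LV was cut into 3 pieces. Nothing in the labels says that the arrays of a region are separate animals, so the errors and p-values speak only for the spread between these 4 samples, which may be technical.

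The values had been deposited as z-scores: 0 is the mean of all probes on the array and 1 is their SD. A value of 2 is therefore a bright probe and a value of -0.49 is the median of a typical array. Differences between regions are given in the same z-score units, with no fold change, and the level of one gene is not set against that of another. LV replicate 4 stood apart. Its Spearman correlation with the other arrays ranged from -0.0601 to 0.0113 over all probes, against means of 0.863 for LV replicate 3 and 0.930 to 0.941 for the rest. Means, SDs and tests below leave LV replicate 4 out (19 arrays), and the counts of members and lists and the main comparisons of each member are also given with it (20 arrays). Of the tissue markers, Myl7, Sln, Mybphl and Nppa were higher in atria than in V and Myl2, Myl3, Irx4 and Hey2 were lower. The node factors Shox2 and Isl1 were higher in SA than in RA, LA and V, and Tbx3 was higher than in LA (adjusted p = 0.00339) and V (adjusted p = 0.00128) but not past the threshold against RA (0.993 ± 0.311, adjusted p = 0.0536). The 4 atrial markers summed to between 14.28 and 17.77 on each array of SA, LA and RA and to between 2.11 and 5.55 on 5 of the 7 ventricle arrays of the fit, but to 8.63 on LV replicate 1 and 7.37 on RV replicate 2. The latter is the array that its title calls right atrium and its other labels right ventricle. Without these 2 arrays, 8 members were higher in SA than in RA, 9 than in LA and 7 than in V, and 5 passed in atria versus V, the same counts as with them.

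Fatty acid synthesis turns spare carbon into fat. Acly splits citrate in the cytosol to give acetyl-CoA, Aacs activates the ketone body acetoacetate for the same use, and Me1 makes NADPH. Acaca carboxylates acetyl-CoA to malonyl-CoA, Fasn builds palmitate from it, Elovl6 lengthens palmitate, and Scd1 and Scd2 put a double bond into the product. Srebf1 encodes SREBP-1, which switches on the genes of the pathway in liver and fat. Heart muscle is known mainly for burning fatty acids, and the pathway is most active in adipose tissue, liver and lactating mammary gland.

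Of the 9 members, 7 had an entry in the RefSeq table of start sites for GRCm38.p6, with 10 windows in all. The 250 bases before the start are shown for 3 members that were higher in SA by different amounts, to let their upstream sequence be read beside their levels. Each runs 5′ to 3′ toward the start, and capitals mark CCAAT boxes (CCAAT) in Fasn and GC boxes (GGGCGG) in Acly, on either strand.
Elovl6, chr3:129532136-129532385, plus strand: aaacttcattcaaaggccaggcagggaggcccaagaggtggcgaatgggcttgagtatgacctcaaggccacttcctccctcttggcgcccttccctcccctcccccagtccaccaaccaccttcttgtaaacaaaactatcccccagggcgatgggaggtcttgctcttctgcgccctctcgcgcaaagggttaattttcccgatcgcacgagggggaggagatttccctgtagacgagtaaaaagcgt
Acly, chr11:100528001-100528250, minus strand: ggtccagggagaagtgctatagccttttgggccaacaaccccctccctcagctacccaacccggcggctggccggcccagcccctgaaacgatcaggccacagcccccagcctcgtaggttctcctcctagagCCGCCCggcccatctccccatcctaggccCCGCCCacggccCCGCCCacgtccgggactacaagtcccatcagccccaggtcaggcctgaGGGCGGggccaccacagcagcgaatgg
Fasn, chr11:120824548-120824797, minus strand: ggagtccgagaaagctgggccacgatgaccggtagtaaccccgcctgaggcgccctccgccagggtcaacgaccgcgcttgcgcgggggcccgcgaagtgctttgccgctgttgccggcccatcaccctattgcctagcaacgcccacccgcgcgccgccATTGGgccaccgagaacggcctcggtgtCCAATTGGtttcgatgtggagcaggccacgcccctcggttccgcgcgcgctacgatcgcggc
Acly held 4 GC boxes, between 117 and 22 bases before the start, and Fasn held 3 CCAAT boxes, the last 2 of which overlap on opposite strands. Elovl6 held neither. A CCAAT box was in 4 of the members' 10 windows against 33.8% of 32851 windows of that length over all genes, and a GC box in 4 of 10 against 32.7%. The SREBP core TCACNCCAC (1.05% of all windows) and the E-box CACGTG (6.02%), searched on both strands, were in 0 of the 10. These are matches of letters within 250 bases and nothing more.

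The first question was how the node region compares with the atrial muscle around it. In SA, 8 of the 9 members were higher than in RA, and none was lower, at an adjusted p below 0.05, where 4.35% of all probes were higher and 4.82% lower. Against LA all 9 were higher (5.02% of all probes were, and 5.16% were lower), and against V, where 14.2% of all probes were higher and 16.4% lower, 7 were higher and 0 lower. Members are counted here by their brightest probe, whereas the shares are over all probes. Of all 11 member probes, 9 were higher in SA than in RA, 10 than in LA and 7 than in V. Against V 1 was lower, the second probe of Srebf1. The members had been chosen with earlier results of these data known, so these counts describe the group and do not test it. Scd1 stood 1.79 ± 0.119 (SE) above RA, Acaca 1.06 ± 0.0574, Elovl6 0.883 ± 0.0892, Aacs 0.835 ± 0.0948 and Acly 0.503 ± 0.0443. The median difference of the members from RA was 0.503, while that of all probes was 0. In bulk tissue, a difference in the share of a cell type and a difference in RNA per cell cannot be told apart.

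**Figure D1:**
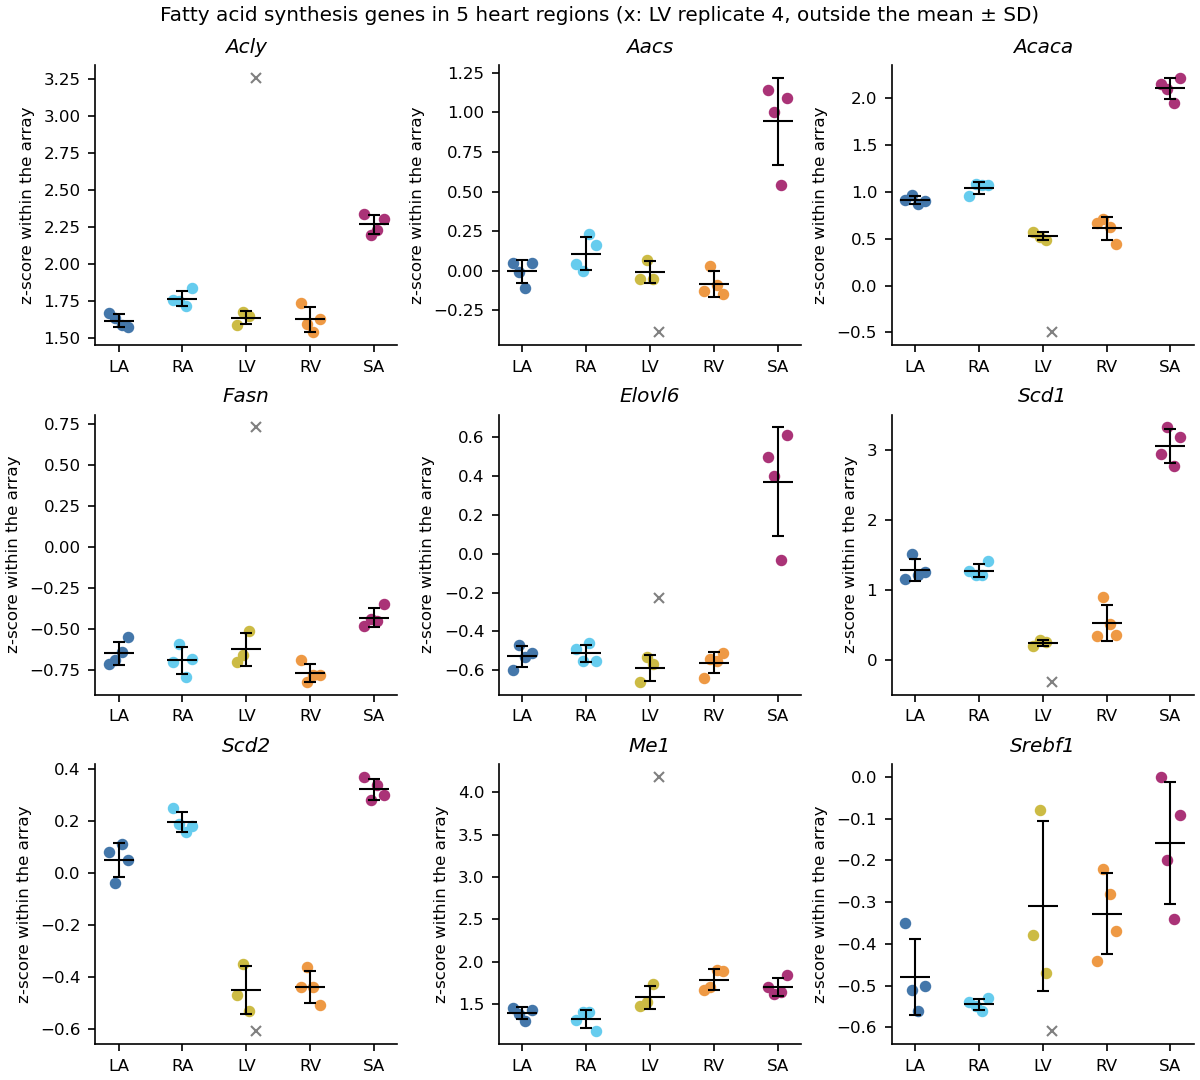
Values of the main probe of each gene (vertical axis, z-score within the array) in the 5 regions, 1 point per array, with the mean ± SD of the region as bars and LV replicate 4 as a grey cross outside them. In 7 of the 9 panels every SA point lies above the other 15 arrays of the fit, the exceptions being Me1 and Srebf1.

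For 7 of the 9 members, every SA array lay above all 15 other arrays of the fit, which held for 1.72% of all probes. Those called higher in SA against RA, LA and V alike were 6 of 9, against 2.11% of all probes. On 20 arrays, every SA array lay above all 16 others for 5 members, Acly and Fasn dropping out, and for 1.24% of all probes. The 3 comparisons share the SA arrays, so they are not separate evidence. With LV replicate 4 in the fit, 4 members remained past the threshold against RA, 5 against LA and 5 against V, where 0.817%, 0.852% and 4.76% of all probes were higher.

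Among the enzymes that supply the carbon, Acly was bright on every array. Its SA values were 2.34, 2.20, 2.23 and 2.31. RA read 1.76, 1.75, 1.72 and 1.84, and LA read 1.67, 1.64, 1.59 and 1.58. In the ventricles, LV read 1.59, 1.68 and 1.65 and RV read 1.74, 1.60, 1.54 and 1.63. The SA values thus formed a group of their own, and RA lay above LA without overlap but LA, LV and RV ran into each other. SA was above RA by 0.503 ± 0.0443 (adjusted p = 3.18e-07), above LA by 0.650 ± 0.0443 (adjusted p = 1.18e-08) and above V by 0.636 ± 0.0394 (adjusted p = 5.04e-10). LV replicate 4 read 3.26 for Acly, higher than any SA array, and with it in the fit the adjusted p rose to 0.945, 0.460 and 0.297 for the same comparisons.

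Aacs, the enzyme that takes up acetoacetate, was near the array mean outside SA. The 15 arrays of the other regions ranged from -0.15 to 0.23. SA read 1.14, 1.0, 0.54 and 1.09, so that all 4 arrays were higher than the rest, with replicate 3 the closest to them. The mean of SA was 0.943 ± 0.275 (SD, n = 4), against 0.108 ± 0.106 in RA and -0.005 ± 0.0755 in LA. Aacs was higher in SA than in RA by 0.835 ± 0.0948 (adjusted p = 6.69e-06), and with 20 arrays the adjusted p was 0.000397, against 0.000105 for LA and 2.05e-06 for V. LA, RA, LV and RV overlapped for Aacs.

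Me1, a source of cytosolic NADPH, had another order. Its brighter probe, ILMN_2774690, averaged 1.79 ± 0.122 in RV and 1.71 ± 0.102 in SA, 1.58 ± 0.138 in LV (n = 3) and, lower, 1.39 ± 0.0699 in LA and 1.33 ± 0.109 in RA. SA and both ventricles overlapped, and each lay above the atria. SA exceeded RA by 0.378 ± 0.0712 (adjusted p = 0.00153) and LA by 0.313 ± 0.0712 (adjusted p = 0.00697), but its difference from V was 0.0183 with a 95% interval of -0.115 to 0.151. The other probe, ILMN_2937261, gave 0.403 ± 0.0797 against RA and -0.0092 ± 0.0709 against V, and the probes followed each other over 19 arrays (Pearson r = 0.905, a description across arrays of several regions). With LV replicate 4, at 4.18 on the brighter probe and -0.54 on the other, none of these differences passed.

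Acaca makes malonyl-CoA, the committed step of the pathway. SA read 2.15, 2.10, 1.95 and 2.21. RA read 0.95, 1.08, 1.07 and 1.07, and LA read 0.91, 0.97, 0.87 and 0.90. The ventricles were lower still, with 0.57, 0.52 and 0.49 in LV and 0.67, 0.71, 0.62 and 0.44 in RV. Acaca therefore formed 3 levels that did not overlap, SA above both atria and both atria above both ventricles. SA was above RA by 1.06 ± 0.0574 (adjusted p = 5.67e-10), above LA by 1.19 ± 0.0574 (adjusted p = 9.53e-11) and above V by 1.53 ± 0.0511 (adjusted p = 1.51e-13). LV replicate 4 was low for this gene, at -0.50, and all 3 comparisons kept an adjusted p of 0.00136 or less with it.

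Fasn, the synthase itself, was a dim probe. It lay below the array mean on each of the 19 arrays, between -0.82 and -0.51 outside SA and at -0.48, -0.44, -0.45 and -0.35 in SA. Within their arrays these are percentiles of 50.2 to 56.2 in SA and of 4.8 to 46.3 elsewhere. SA thus lay above all other arrays, by a small step: 0.260 ± 0.0508 over RA (adjusted p = 0.00208), 0.218 ± 0.0508 over LA (adjusted p = 0.00844) and 0.265 ± 0.0452 over V (adjusted p = 0.000162). With LV replicate 4, at 0.73, none of the 3 passed (adjusted p = 0.722 to 1).

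Elovl6, which takes palmitate to stearate, was below the array mean outside SA. The other regions ranged from -0.66 to -0.46 over 15 arrays and overlapped. These are percentiles of 32.4 to 51.8 within their arrays, so the signal there may be close to background. SA read 0.50, 0.40, -0.03 and 0.61, all higher, with replicate 3 again the lowest. The SD was 0.280 in SA and 0.045 to 0.0666 in the other regions, so the pooled SEs understate the spread of SA. The difference was 0.883 ± 0.0892 from RA (adjusted p = 1.68e-06), 0.898 ± 0.0892 from LA and 0.943 ± 0.0793 from V, and with 20 arrays the adjusted p was 0.000120 or less in each.

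Scd1, the main desaturase of liver and fat, had the widest range of the members. SA read 2.95, 3.33, 2.78 and 3.20. RA read 1.27, 1.21, 1.21 and 1.41, and LA read 1.15, 1.51, 1.22 and 1.26. RV read 0.34, 0.90, 0.51 and 0.36, and LV read 0.19, 0.28 and 0.25. The order was SA, then the atria, which overlapped, then RV, then LV, with no overlap between these 4 levels, although the difference of LV from RV was not past the threshold (-0.288 ± 0.128, adjusted p = 0.305). SA exceeded V by 2.68 ± 0.106 (adjusted p = 8.67e-13). Among the 25697 probes, Scd1 had the 9th largest difference upward from RA, the 10th from LA and the 11th from V. LV replicate 4 read -0.32, and with it the adjusted p was 1.52e-06 against RA, 1.81e-06 against LA and 2.49e-10 against V. RV replicate 2, the array with an atrial title, was the highest RV array, and without it and LV replicate 1 atria still exceeded V, by 0.946 (adjusted p = 1.25e-07).

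Scd2, a desaturase known from brain and other tissues, differed from Scd1 in its pattern. SA read 0.37, 0.28, 0.34 and 0.30, RA read 0.25, 0.19, 0.16 and 0.18, and LA read 0.08, -0.04, 0.11 and 0.05. LV read -0.47, -0.35 and -0.53 and RV read -0.44, -0.36, -0.44 and -0.51. The atria thus lay nearer to SA than to the ventricles, RA more so than LA. The step from RA to SA was 0.128 ± 0.0439, with no overlap but an adjusted p of 0.0832, which did not pass, and its 95% interval was 0.0354 to 0.220. Against LA (0.273 ± 0.0439, adjusted p = 0.000346) and V (0.766 ± 0.0390, adjusted p = 3.52e-11) SA was higher, and both held with 20 arrays (adjusted p = 0.0129 and 5.58e-09). The sequences of the probes were not used here, so signal shared between related desaturases was not tested.

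Srebf1 was dim. Its brighter probe, ILMN_2792089, averaged -0.158 ± 0.147 in SA, -0.310 ± 0.204 in LV (n = 3), -0.328 ± 0.0971 in RV, -0.480 ± 0.0906 in LA and -0.545 ± 0.0129 in RA. SA read 0.00, -0.20, -0.34 and -0.09, above RA and LA and overlapping the ventricles, which read -0.47 to -0.08. The difference was 0.388 ± 0.0781 from RA (adjusted p = 0.00265), 0.323 ± 0.0781 from LA (adjusted p = 0.0108) and 0.161 ± 0.0695 from V (adjusted p = 0.0861). The call against V turned on single arrays: it passed without LV replicate 2 (0.219, adjusted p = 0.0104) and without SA replicate 3 (0.222, adjusted p = 0.0241). With 20 arrays the comparisons with RA and LA did not pass (adjusted p = 0.0533 and 0.155). The other probe, ILMN_2696876, lay between -0.91 and -0.71 on the 19 arrays, near the floor. It did not pass against RA (-0.03 ± 0.0387, adjusted p = 0.787) or LA (-0.0625 ± 0.0387, adjusted p = 0.396). Against V it ran the other way (-0.0975 ± 0.0344, adjusted p = 0.0388). The higher values in SA were thus seen with 1 Srebf1 probe only, and the probes did not follow each other (r = -0.366 over 19 arrays). A probe so near the floor may carry too little signal to settle this.

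**Figure D2:**
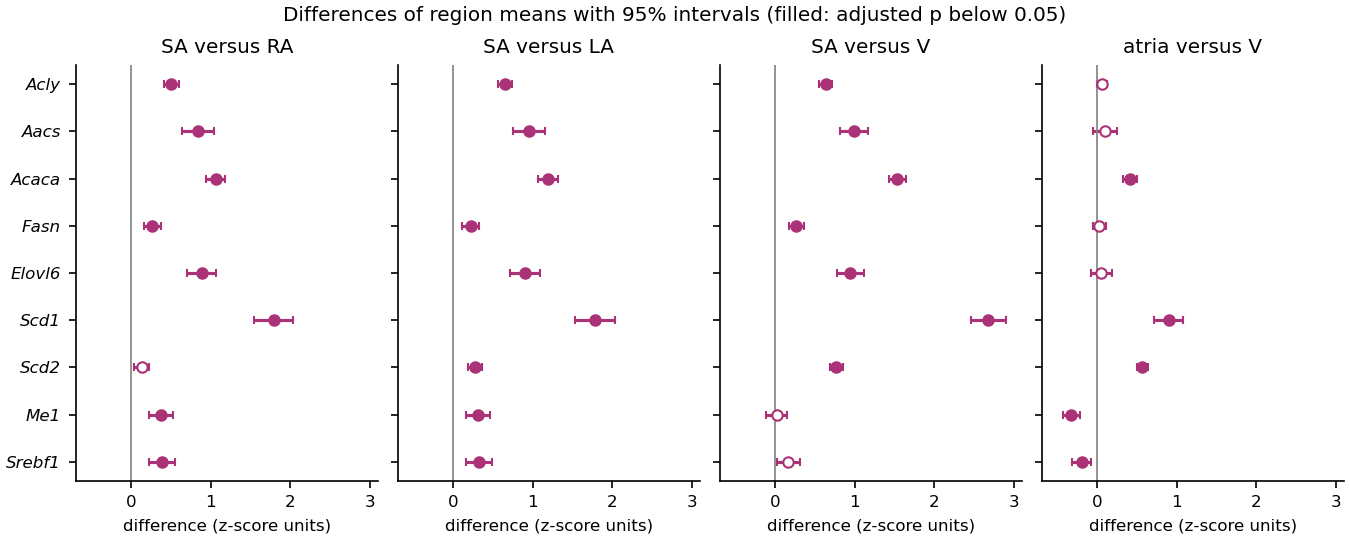
Differences of region means (horizontal axis, z-score units) for the main probe of each gene in 4 comparisons, with 95% intervals and filled points for an adjusted p below 0.05. Scd1 lies farthest right in all 4 panels, at 1.79 against RA and 2.68 against V, and Me1 and Srebf1 lie left of 0 for atria versus V.

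The next question was how atria and ventricles differ. Atria were higher than V in Scd1 by 0.896 ± 0.0872 (adjusted p = 1.42e-07), in Scd2 by 0.566 ± 0.0323 (adjusted p = 9.41e-11) and in Acaca by 0.409 ± 0.0422 (adjusted p = 3.13e-07), without overlap in any of the 3, as in 6.58% of all probes. Me1 was lower in atria (-0.327 ± 0.0524, adjusted p = 6.52e-05) and so was Srebf1 (-0.194 ± 0.0575, adjusted p = 0.0127). The remaining Acly, Aacs, Fasn and Elovl6 did not pass, with differences of 0.0267 to 0.0988. Thus 5 of 9 were called where 39.3% of all probes were, 16.5% higher and 22.8% lower, which is a share near the background. With 20 arrays, where 6.9% of all probes were higher, the 3 higher members passed and the 2 lower ones did not (adjusted p = 0.153 for Me1 and 0.151 for Srebf1).

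Left and right sides were compared last. Between LA and RA, 0 of 9 members passed (1.9% of all probes did), and between LV and RV 0 of 9 (1.41%). The largest LA minus RA differences were -0.148 ± 0.0443 for Acly (adjusted p = 0.122) and -0.145 ± 0.0439 for Scd2 (adjusted p = 0.124), where every LA array was below every RA array, as in 3.03% of all probes. Of all member probes the second probe of Me1 came nearest in LV versus RV, at -0.327 ± 0.0861 (adjusted p = 0.0725), and it passed without LV replicate 3 (adjusted p = 0.0454) or without SA replicate 1 (adjusted p = 0.0422), and with dim probes filtered out (adjusted p = 0.0479). Whether the left-right difference of the atria departed from that of the ventricles was tested as an interaction, which passed for 0 of 9 (2.36% of all probes). The second Me1 probe stood at 0.387 ± 0.117 in it (adjusted p = 0.0959), and at 0.460 without LV replicate 3, where it passed (adjusted p = 0.048). At an unadjusted p below 0.05 in the same limma fit, 3 of 9 members were below it for LA versus RA, 3 for LV versus RV and 2 for the interaction, where 10.5%, 15% and 15.3% of all probes were. With 20 arrays 0 of 9 passed in each of the 3, against 0.311%, 0.0156% and 0.214% of all probes.

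Neighbours of the pathway were measured with lists set for this comparison, with earlier results of these data known. The list counts below stand beside the shares of all probes in each comparison. For SA versus RA these were 4.35% higher and 4.82% lower, for SA versus LA 5.02% and 5.16%, and for SA versus V 14.2% and 16.4%. Of 27 other genes of fatty acid synthesis and elongation, 24 were measured, and in SA versus RA 4 were higher and 0 lower, with a median difference of 0.0288. These were Thrsp, a lipogenic cofactor of liver and fat (1.01 ± 0.0986, adjusted p = 1.12e-06), the acyl-CoA synthetase Acsl6 (0.458), the desaturase Fads1 (0.323) and the mitochondrial reductase Mecr (0.228). Against LA 5 were higher and 1 was lower, Scd4, a desaturase known from the mouse heart, by -0.665 ± 0.115. Scd4 averaged 1.26 ± 0.232 in LA, 0.932 ± 0.222 in RA, 0.593 ± 0.140 in SA, 0.147 ± 0.116 in LV and 0.098 ± 0.146 in RV, an order in which the atria came first, unlike that of Scd1. Against V this list went both ways. There 13 were higher, led by Thrsp (0.658) and Fads1 (0.657), and 6 lower, led by Mid1ip1 (-0.605) and Tecr (-0.428). With 20 arrays 1 gene was higher in SA than in RA and 0 lower, and against LA 1 was higher and 1 lower. Against V 3 were then higher and 0 lower.

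For supply of acetyl-CoA and NADPH, 12 of 14 listed genes were measured, all but G6pdx and Pgd. Of these 12, 3 were higher in SA than in RA, with 0 lower. The mitochondrial citrate carrier Slc25a1, which hands Acly its substrate, was higher by 0.840 ± 0.0682 (adjusted p = 1.22e-07). It averaged 1.21 ± 0.135 in SA against 0.372 ± 0.0900 in RA and 0.300 ± 0.0900 in LA, and the ventricles were at 0.187 ± 0.081 (LV) and 0.035 ± 0.104 (RV). Pyruvate carboxylase Pcx (0.568 ± 0.0520) and the acetate-activating enzyme Acss2 (0.345 ± 0.0654) were the others. Against V the same list went both ways, with 4 higher and 6 lower, among them Oxct1, which uses ketone bodies for fuel, at -0.796 ± 0.0648. With 20 arrays 1 gene of the list was higher in SA than in RA and 2 were higher than in V, with 0 lower in either.

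Regulators did not move together. Of 15 measured genes for control of lipogenesis, 2 were higher in SA than in RA, the glucose-responsive factor Mlxipl (0.555 ± 0.0827) and Insig1 (0.395 ± 0.0869), which holds SREBP back. Another 3 were lower: the AMP-activated kinase subunit Prkaa2 (-0.428), Usf2 (-0.333) and Insig2 (-0.228). For cholesterol synthesis and uptake, the branch controlled by the related SREBP-2, 5 of 16 measured genes were higher, led by Sqle (0.455), Msmo1 (0.335), Pmvk (0.258) and Fdps (0.198), and Stard4 was lower (-0.243). Triglyceride assembly, which uses the fatty acids made, had 6 of 13 higher and 0 lower in SA than in RA, led by Agpat2 (0.598), Dgat1 (0.393), Dgat2 (0.365) and Gpat4 (0.323). Against V, where 14.2% of all probes were higher and 16.4% lower, 2 of these 13 were higher and 4 were lower. Among the lower was the acyltransferase Gpam at -0.655 ± 0.0498. With 20 arrays none of the genes in these 3 lists passed in SA versus RA, and none of the 13 in SA versus V.

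**Figure D3:**
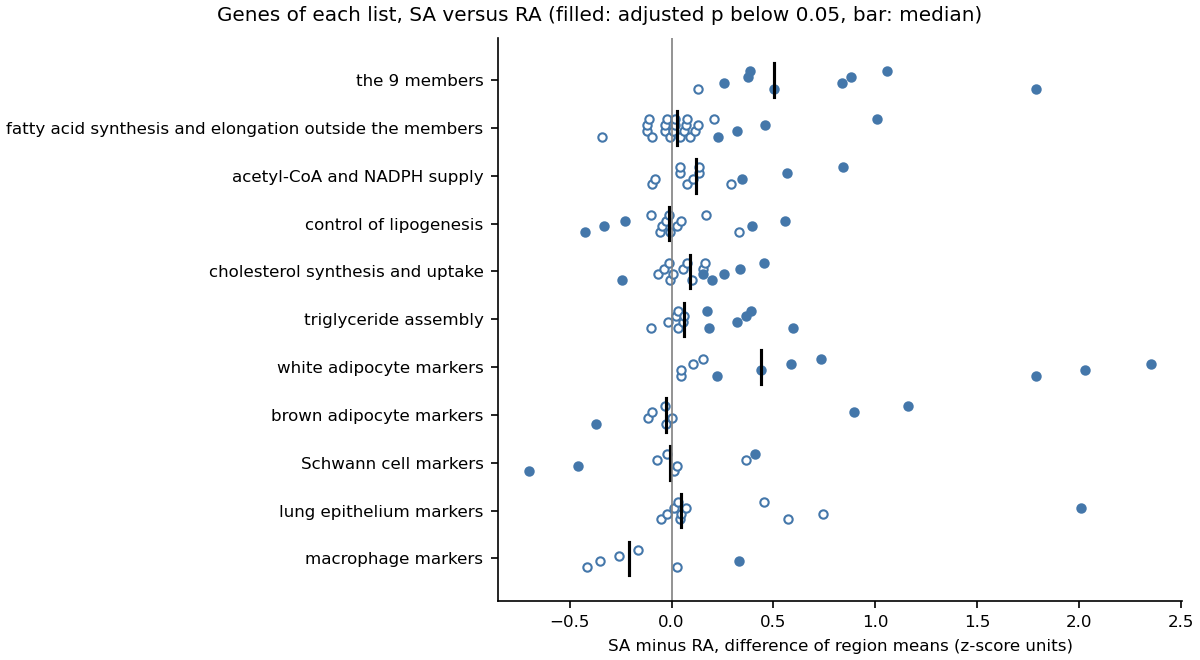
Differences of SA from RA (horizontal axis, z-score units) for the measured genes of each list and the 9 members, 1 point per gene, filled for an adjusted p below 0.05, with the median of the list as a bar. The members' median of 0.503 and that of the white adipocyte markers, 0.44, lie to the right of the other lists drawn. The lists of the tissue check are not drawn.

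Many markers of white fat cells were higher in SA, like the members, although the labels say that adipose tissue had been trimmed away. Of 11 measured white adipocyte markers, 7 were higher in SA than in RA and 0 lower, with a median difference of 0.44. Against LA 8 were higher and against V 6, with 0 lower in either. In atria versus V they went both ways, with 2 higher and 3 lower, where 16.5% of all probes were higher and 22.8% lower. The adipokine gene Adipoq averaged 2.15 ± 0.243 in SA and from -0.66 to 0.17 in the other regions. The lipid droplet genes Cidec and Plin1 were higher in SA than in RA by 1.79 ± 0.112 and 0.733 ± 0.0641, and Car3 by 2.03 ± 0.210. Fabp4 and Retn were near the floor in all 5 regions, with region means from -0.82 to -0.707. Summed over the 11 markers, the z-scores came to 8.14, 8.89, 6.32 and 7.65 in SA and to between -1.83 and 0.58 on the 15 other arrays, so the regions did not overlap. LV replicate 4 came to 6.16, and with it in the fit 5 of the 11 were higher in SA than in RA, 6 than in LA and 5 than in V. Replicate 3 was the lowest SA array in this sum and also in Scd1, Acaca, Aacs, Elovl6 and Srebf1, 5 of the 9 members. The other 4 went differently: Scd2, Acly and Me1 were lowest in replicate 2, the highest in this sum, and Fasn in replicate 1. The share of all probes that were lowest in replicate 3 was not counted. Among the 5, deviations from region means correlated at r = 0.303 to 0.827 for each pair, so they are not separate observations. The part of fat tissue in the members' differences was not tested.

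**Figure D4:**
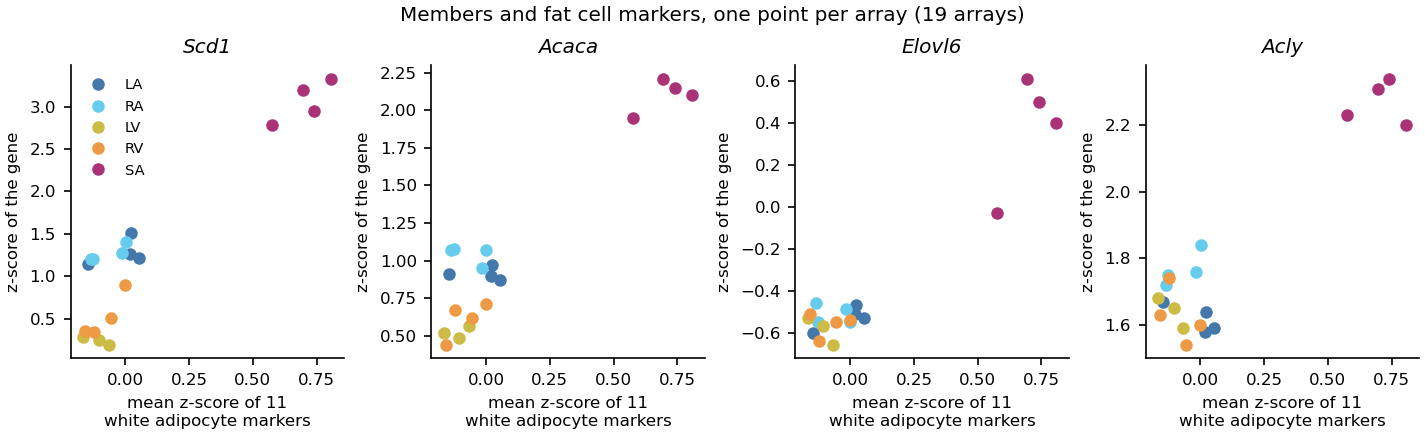
Level of Scd1, Acaca, Elovl6 and Acly (vertical axis, z-score) against the mean z-score of 11 white adipocyte markers (horizontal axis) on the 19 arrays, 1 point per array, coloured by region. The 4 SA arrays stand apart at marker means of 0.575 to 0.808, and the 15 others lie between -0.166 and 0.053.

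Other cell types were less uniform. Of 8 brown adipocyte markers, Ucp1 (1.16 ± 0.199) and Cidea (0.895 ± 0.105) were higher in SA than in RA and Ppargc1a was lower (-0.373), and the summed level overlapped between SA (8.25 to 10.3) and RV (9.42 to 10.2). Against V, Ucp1 was higher (1.17 ± 0.177) and Ppargc1a (-0.563) and Cox7a1 (-0.629) were lower, so the sum joins genes that went both ways. On 20 arrays 1 of the 8 was higher than in V and 0 lower. Ucp1 varied among the SA arrays, with a mean of 0.355 ± 0.685. Of 11 lung epithelium markers Scgb1a1 alone was higher in SA than in RA (2.01 ± 0.548), and their sum was 3.07 on SA replicate 2 and -6.08 to -4.94 on the other SA arrays. Leaving out SA replicate 2 left 8 members higher than RA and 9 higher than LA. Of 8 Schwann cell markers 1 was higher and 2 lower in SA than in RA, and of 6 macrophage markers 1 was higher and 0 lower. With 20 arrays, 1 brown adipocyte marker and 1 Schwann cell marker were higher in SA than in RA, 1 Schwann cell marker was lower, and no lung or macrophage marker passed.

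Members were also set beside all 16592 other genes by Pearson r over the 19 arrays, a description in which the points share regions. Scd1 was closest to Acaca (0.982), then to Cdo1 (0.974), Adipoq (0.972), Slc1a3 (0.97) and Car3 (0.966). Acaca was closest to Scd1 and Cdo1 (both 0.982), with Slc1a3, Rsrc1 and Slc25a1 behind them. Elovl6 and Aacs were near each other (0.976) and shared Clstn3, Cldn11 and Slc7a10 among their 5 closest genes. Acly had the node factor Isl1 (0.97) and Alox8 (0.977) beside it, followed by Flrt3, Slitrk5 and Fam78b. Scd2 was closest to Plppr5 (0.982), Pdlim4, Gm2a, Cacna1h and Rab33a. Fasn, Me1 and Srebf1 had looser neighbours, led by Epb41l1 (0.894), Slc7a6 (0.876) and Kcnab1 (0.886). Once the mean of each region was taken out, r was 0.827 for Aacs and Elovl6, 0.541 for Scd1 and Acaca and -0.133 for Scd1 and Acly. The first value rests largely on SA, where replicate 3 was lowest for both genes (0.54 and -0.03). Their SDs were 0.275 and 0.280 in SA, against 0.0693 to 0.106 and 0.045 to 0.0666 in the other regions. The r without SA was not calculated.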

How the data were processed

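RNA from 5 regions of the mouse heart, 4 arrays each, was hybridised to Illumina MouseRef-8 v2 bead arrays. Signals were read with BeadStudio and GenomeStudio 2011.1, as the submitters' processing notes name them. The deposited values are a score, a z-score within each array (mean 0 and SD 1 over 25697 probes, 2 decimals), as found from the values. For their own analysis the authors describe log2 signals, taken after a constant was added, with array medians then aligned in limma. Whether such values went into the deposited z-scores, and how these were made, is not given in the sources used here. Detection p-values were not used. A z-score fixes the mean and SD of each array, so a shift of the whole array cannot be seen.

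Probes were named by the platform annotation, updated by gene identifier (23962 of 23978 named probes matched). RV replicate 2, titled as right atrium but labelled right ventricle elsewhere, was taken as RV. A mean per region was fitted to 19 arrays over all probes with limma 3.58.1 in R 4.3.3, and 6 comparisons and 1 interaction were tested two-sided by moderated statistics, with Benjamini-Hochberg adjustment over all probes and a threshold of 0.05. A gene was called by its probe of highest mean. The genes named from each list were up to 4 per comparison and direction with the largest differences past the threshold, and for likeness the 5 of highest r. Members, lists and the exclusion of LV replicate 4 were chosen with earlier results of these data known, so no p-value was adjusted over a list alone. The fit was tested on simulated data. Alternatives were all 20 arrays, 18 arrays, other scalings, a filter on dim probes, 1 probe per gene, a trend in the moderation, a replicate block and each array left out in turn, and, chosen after seeing the data, a block within atria and within ventricles and a fit of 17 arrays. Precision is limited by how many arrays there were.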

Additional observations from a re-analysis of the deposited data

Results flagged for a closer look

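In groups of 4 arrays, the highest or lowest value was set against the nearest of the others (Dixon's criterion), which chance flags in about 1 in 20 groups. LV replicate 4 was flagged for 5 members. It was the lowest LV array for Scd1, at -0.32, and for Acaca, at -0.5. It was the highest for Fasn, at 0.73, and for Acly, at 3.26. For Me1 it was the highest on the brighter probe, at 4.18, and the lowest on the other, at -0.54. One further array was flagged, RA replicate 1 for Acaca, at 0.95 against 1.07 to 1.08 in the other RA arrays.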

How the results depend on the processing

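Adding LV replicate 4 moved the counts most. With 20 arrays, members past the threshold were 4 in SA versus RA, 5 in SA versus LA and 3 in atria versus V. Probes past it were then 367 in SA versus RA (2356 with 19 arrays), 358 in SA versus LA (2616), 1544 in SA versus V (7868), 2471 in atria versus V (10111), 80 in LA versus RA (488), 4 in LV versus RV (363) and 55 in the interaction (607). Quantile normalization gave 622 probes in LV versus RV and 957 in the interaction, and the filter on dim probes 6229 in atria versus V, with 10706 probes tested. With single arrays left out, members numbered 7 to 8 in SA versus V and were as reported in the other comparisons, and probes in LV versus RV ranged from 133 to 394. Under the other settings these counts stayed within 1.5 times the reported ones, apart from LV versus RV in the fits chosen after seeing the data, given below. Differences of member probes past the threshold changed sign in 0 cases over all settings run.

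Titles number the arrays of LV and RV alike and those of LA and RA alike, while SA has letters, and no label says that same-numbered samples shared a heart. Deviations of same-numbered arrays from their region means correlated at r = 0.173, 0.177 and 0.038 between LV and RV, at -0.262 to 0.313 between LA and RA and at -0.305 to 0.482 over all pairs of regions, so the numbers were not taken as pairs. With the replicate number as a block, 2276 probes passed in SA versus RA, 2473 in SA versus LA, 7763 in SA versus V, 9940 in atria versus V, 478 in LA versus RA, 242 in LV versus RV and 574 in the interaction, and members numbered 8, 9, 7, 5, 0, 0 and 0. Among member probes the block ended 1 call, that of the second Srebf1 probe in SA versus V (adjusted p = 0.0594). With a block within atria and within ventricles, chosen after seeing the data, these member counts were unaltered, and 138 probes passed in LV versus RV. Without LV replicates 1 and 4 and RV replicate 2 (17 arrays, also chosen after seeing the data), members numbered 8, 9, 7, 5, 0, 0 and 0 and 133 probes passed in LV versus RV. The call of the second Srebf1 probe was lost under both (adjusted p = 0.0767 and 0.0654). It was also lost with 20 arrays (0.153), under quantile normalization (adjusted p = 0.161), with aligned medians (0.054), without LV replicates 3 and 4 (0.0874) and without any 1 of 7 single arrays. The depth of the signals over background is unknown for z-scores. This limits Fasn and Srebf1 most, together with Elovl6 outside SA and Scd2 in the ventricles.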
